A study of Mus musculus with 18 samples.

Results

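Intraflagellar transport and ciliary gate genes were followed in the lungs of 18 female B6C3F1 mice, a first-generation cross of the C57BL/6 and C3H strains, after 13 weeks of dosing. The genes were chosen by symbol: the numbered Ift, Bbs, Tctn, B9d and Nphp families together with Wdpcp, Mks1, Cc2d2a, Kif3a, Kif3b, Kifap3 and Dync2h1. Only probe sets annotated to a single symbol were taken, and each gene was represented by its probe set with the highest mean over the 18 arrays. This gave 36 genes of 18193, covered by 59 of the 34945 single-symbol probe sets. Rpgrip1l and Arl13b were not analysed here.

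The mice were 18 weeks old, and each array held the right lung lobe RNA of 1 animal, with 3 animals in each of 6 groups. NDA mice received 1,5-naphthalenediamine at 2000 ppm in feed, and benzofuran mice received 2,3-benzofuran at 240 mg/kg by gavage; the submitters class both as positive lung carcinogens. NEDD mice received N-(1-naphthyl)ethylenediamine dihydrochloride at 2000 ppm in feed, and PCNB mice received pentachloronitrobenzene at 8187 ppm in feed; both are classed as negative. Corn oil control mice received the gavage vehicle at 5 ml/kg, 5 days a week like the benzofuran mice, and feed control mice ate chow, with feed groups exposed 7 days a week. The lungs were whole tissue, so fewer cells of a type and less RNA per cell cannot be told apart in any value below.

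Motile and primary cilia are built by trains of IFT-B and IFT-A complexes, which kinesin-2 motors carry to the ciliary tip and dynein-2 carries back. The BBSome rides on these trains and moves membrane proteins, and the transition zone at the ciliary base, which holds the MKS module with the tectonic and B9-domain proteins, acts as the gate. In the lung, the airway's multiciliated cells carry many motile cilia each and express these genes strongly, while many other cells carry a single primary cilium or none. Wdpcp, the mouse homologue of the fly planar polarity protein Fritz, belongs to the CPLANE complex, which acts at the base of the forming cilium.

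Regulatory factor X (RFX) proteins bind a near-palindromic motif, the X-box, in front of many cilium genes, and the promoters of the genes were read for it. RefSeq promoter windows of assembly GRCm38.p6, from 250 bases before to 50 bases after the annotated start, were given for 33 of the 36 genes. The half-site GTTGCC, on either strand, lay in the first-listed window of 17 of the 33 (51.5%), against 2226 of 17491 protein-coding genes (12.7%). The 17 include B9d1os, an opposite-strand transcript whose window overlaps that of B9d1, and both were counted for the same site. The full X-box was searched on both strands in a 14-base form with fixed spacing. It lay in 5 of 33 windows (15.2%), against 129 of 17491 (0.738%), and a full site can contain a half-site. The core TGACNNNGC of the antioxidant response element, on either strand, lay in 2 of 33 (6.06%), against 2308 of 17491 (13.2%). These shares describe letters in a window, and no factor binding was measured. The 5 full sites are shown because they are the clearest X-boxes among the genes, each on its gene's strand with the 14-base site in capitals and up to 8 flanking bases in lower case.
Tctn1 (chr5:122264411-122264432, minus strand): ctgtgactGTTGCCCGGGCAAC
Tctn2 (chr5:124598679-124598708, plus strand): gattggagGTTACCATGGCTACtggtcctc
B9d2 (chr7:25680788-25680817, plus strand): aacctgctGTTGCCCCAGCAACagtcgggg
Ift57 (chr16:49699199-49699228, plus strand): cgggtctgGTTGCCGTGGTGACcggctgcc
Bbs1 (chr19:4906605-4906634, minus strand): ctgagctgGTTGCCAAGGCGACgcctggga

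Whole windows are shown for Wdpcp, the gene with the largest difference below, and for Ift172 and B9d1, the genes called with benzofuran whose window held a half-site. Capitals mark the half-site, in B9d1 as its reverse complement, and positions count the gene's first base as 1.
Wdpcp (chr11:21572031-21572330, plus strand): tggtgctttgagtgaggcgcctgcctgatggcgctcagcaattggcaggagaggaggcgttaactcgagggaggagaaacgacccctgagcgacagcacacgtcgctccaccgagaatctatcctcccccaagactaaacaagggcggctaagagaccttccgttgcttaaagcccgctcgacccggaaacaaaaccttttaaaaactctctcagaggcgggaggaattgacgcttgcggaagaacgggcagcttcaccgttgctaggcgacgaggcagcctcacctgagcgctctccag
Ift172 (chr5:31291065-31291364, minus strand): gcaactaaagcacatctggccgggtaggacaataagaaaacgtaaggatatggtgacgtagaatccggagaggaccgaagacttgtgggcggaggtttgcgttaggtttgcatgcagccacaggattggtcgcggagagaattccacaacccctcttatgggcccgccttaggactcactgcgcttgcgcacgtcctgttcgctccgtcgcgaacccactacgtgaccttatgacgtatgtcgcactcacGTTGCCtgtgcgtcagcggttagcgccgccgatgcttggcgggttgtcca
B9d1 (chr11:61504894-61505193, plus strand): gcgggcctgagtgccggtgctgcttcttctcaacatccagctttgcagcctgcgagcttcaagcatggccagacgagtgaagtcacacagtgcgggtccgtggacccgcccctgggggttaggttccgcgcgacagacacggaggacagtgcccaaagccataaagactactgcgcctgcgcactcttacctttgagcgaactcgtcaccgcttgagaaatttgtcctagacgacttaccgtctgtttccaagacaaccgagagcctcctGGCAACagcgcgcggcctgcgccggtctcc
The Ift172 half-site covered positions 1 to 6 on the gene's own strand, and the B9d1 half-site covered positions 21 to 26 on the opposite strand. The Wdpcp window held none of the 3 motifs in the form searched, and looser or differently spaced forms of the X-box were not searched. Of the 4 genes called with benzofuran, 2 had a half-site and 0 a full X-box in this window.

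The deposited values are log2 signals, and 13434 genes were tested, namely those whose probe set exceeded the 40th percentile of signals on 3 or more arrays. Of the 36 cilium genes 34 passed, among them all 3 IFT-A, 11 IFT-B, 4 motor and 8 transition zone genes, 7 of 8 BBSome and assembly genes, and Wdpcp. Bbs12, a chaperonin-like BBSome assembly factor with a mean log2 signal of 4.54, and B9d1os, an opposite-strand transcript that matched the name pattern and had a mean of 3.93, exceeded the percentile on 0 arrays. Mean log2 signals of the 34 ran from 5.23 for Bbs10 to 9.41 for Ift43, values that belong to different probe sets and do not rank transcript levels.

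One array stood apart. Benzofuran animal 10 lay at 46.6 on the first principal component, with the other 17 arrays between -11.8 and 7.81, and its actin 3' minus 5' probe set difference, a sign of RNA degradation, was the highest at 0.906 log2 units, against 0.333 to 0.726 elsewhere; the part of either in the results was not tested beyond the fits given below. Its RNA integrity number in the labels was 8.9, which other groups also reach. The actin difference also separated some of the groups compared. It was 0.333 to 0.432 in NDA, 0.350 to 0.530 in NEDD and 0.352 to 0.581 in PCNB lungs, against 0.580 to 0.726 in feed control lungs. In benzofuran animals 6 and 8 it was 0.395 and 0.354, against 0.417 to 0.641 in corn oil control lungs. Of the 34 genes, 25 had their highest benzofuran signal on animal 10 and 23 had their highest of all 18 arrays there. The same shares over all genes tested were not worked out, so these counts do not set the cilium genes apart. Counts of calls in comparisons that use benzofuran, and the differences of the cilium genes called there, are therefore given with and without this animal.

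**Figure D1:**
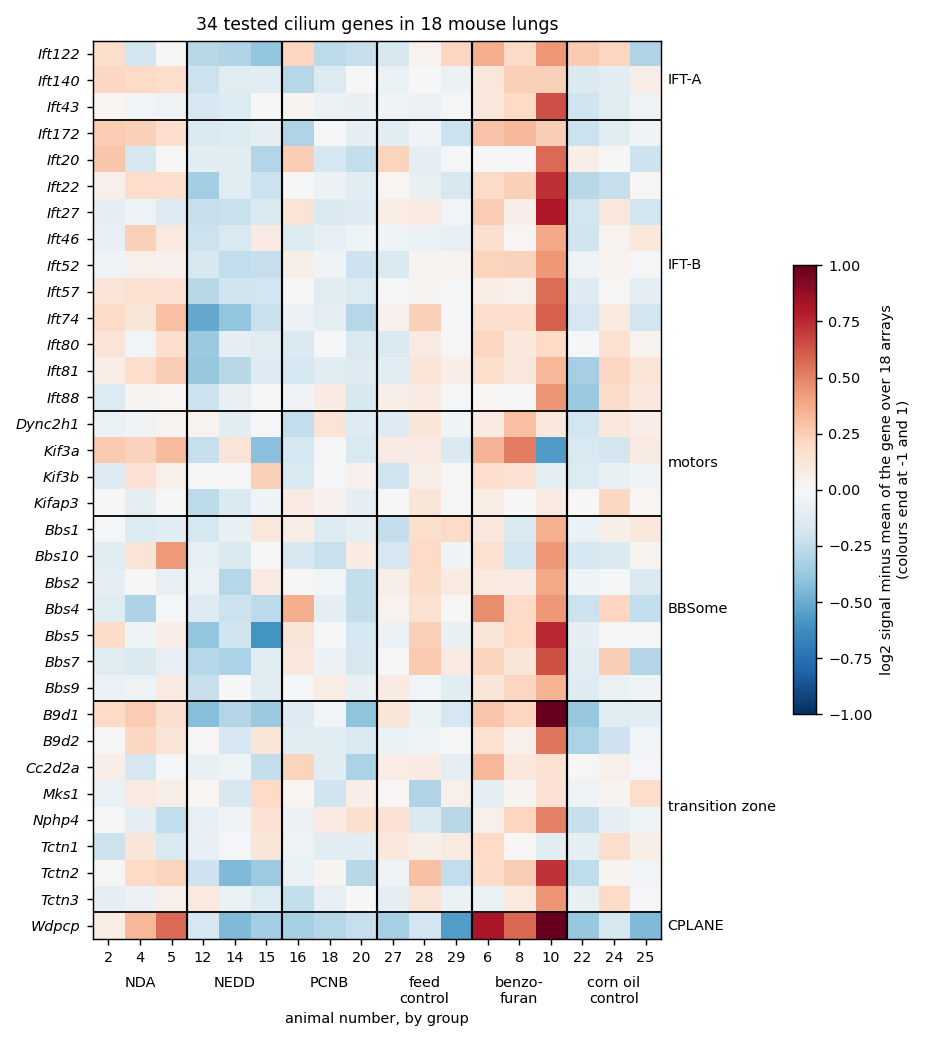
Log2 signal of the 34 tested genes (rows, by complex) in 18 lungs (columns, by group and animal number), each gene centred on its own mean, with red above and blue below. The benzofuran block is red for most genes, most deeply on animal 10, and the NEDD block is blue for most.

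Benzofuran was set against its corn oil vehicle control. The genes were mostly higher with benzofuran: 31 of 34 fitted differences were positive, with a median of 0.26 log2 units beside 0.05 over all genes tested. In limma's moderated test, 4 of 34 rose at an adjusted p under 0.05 and 0 fell, where 233 of the 13434 genes tested (1.73%) were called and 1.56% were called higher. At an unadjusted p under 0.05 there were 18 of 34 genes, beside 19.5% of all genes. All 3 benzofuran arrays lay above all 3 corn oil arrays for 16 of 34 genes, beside 13.1% of all genes, and below them for 0, beside 4.32%. Without animal 10, only Wdpcp was called, beside 0.499% of all genes, 30 of 34 differences were positive, and the medians were 0.22 for the cilium genes and 0.02 for all genes. The count was also 1 without corn oil animal 22 (0.275% of all genes called) or corn oil animal 24 (0.841%), and 7 without benzofuran animal 8 (7.85%). It was 9 with array weights, where 8.55% of all genes were called, and 10 with the actin difference as a covariate, where 5.46% were. The covariate is fitted from the actin spread within groups, widest in benzofuran lungs through animal 10, so this count leans on that animal. The count was 1 with all probe sets tested together (0.997%) and 0 in a fit on the 2 groups alone (0.0372%).

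Wdpcp gave the largest difference. Its log2 signals were 7.93, 7.69 and 8.61 in benzofuran lungs, against 6.74, 6.96 and 6.67 in corn oil control lungs. The lowest benzofuran array lay above the highest corn oil array, and animal 10 was the highest of all 18. The difference was 1.29 ± 0.18 log2 units (standard error, n = 3 each), a 2.44-fold rise with a limma adjusted p of 0.00111, the gene ranking 18 by p among all tested. Without animal 10 it was 1.02 with an adjusted p of 0.00195. It was called under 24 of 25 alternative settings, the exception being a fit on the 2 groups alone, where the limma adjusted p was 0.190 and 5 genes of all were called. Leaving out an NDA, NEDD, PCNB or feed control array, as many of the 25 did, changes only the pooled spread and not this difference. A second Wdpcp probe set had a mean of 3.22 and was not tested. Mdh1, cytosolic malate dehydrogenase, has a RefSeq gene within 2 kb of Wdpcp, and its difference was 0.16 ± 0.11 (limma adjusted p = 0.452).

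In the feed groups Wdpcp had 7.19, 7.45 and 7.68 in NDA lungs, 6.95, 6.67 and 6.78 in NEDD lungs and 6.78, 6.83 and 6.88 in PCNB lungs, against 6.78, 6.93 and 6.56 in feed control lungs. All NDA arrays lay above every other feed array, while NEDD, PCNB and feed control overlapped. The NDA difference of 0.68 ± 0.18 (1.61-fold) missed the threshold with a limma adjusted p of 0.0813, and passed it at 0.00603 when benzofuran animal 10 was left out of the fit, where its standard error was 0.13. NEDD and PCNB differed from feed control by 0.04 and 0.07, and corn oil from feed control by 0.03, each with a standard error of 0.18.

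**Figure D2:**
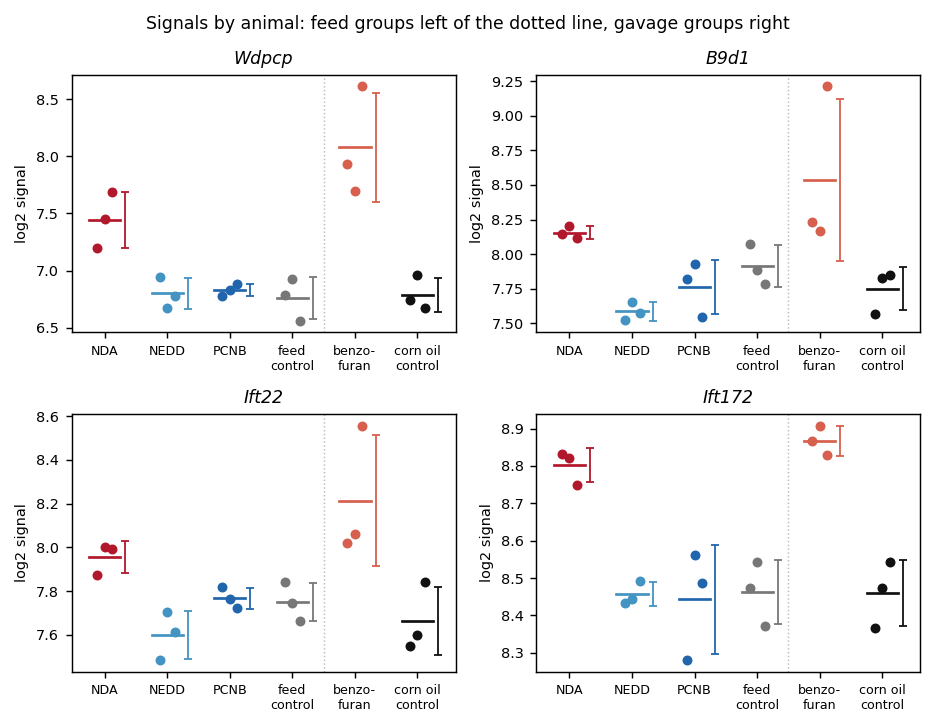
Log2 signals by animal for the 4 genes called with benzofuran, points for the 3 animals of a group, long bars for the group mean and whiskers for the SD. Wdpcp, B9d1, Ift22 and Ift172 lie higher in every benzofuran lung than in any corn oil control lung, and higher in every NDA lung than in any feed control lung.

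Among the transition zone genes, B9d1, a B9-domain protein of the gate, rose with benzofuran, 6 of 8 differences were positive, and 5 of 8 had all benzofuran arrays above all corn oil arrays, beside 13.1% of all genes. B9d1 had 8.23, 8.17 and 9.21 in benzofuran lungs, against 7.57, 7.83 and 7.85 in corn oil control lungs. Animals 6 and 8 were alike and animal 10 stood far above both. The difference of 0.79 ± 0.20 (1.73-fold) had a limma adjusted p of 0.0480. It was 0.45 with an adjusted p of 0.115 without animal 10, and it was called under 6 of the 25 alternative settings, so the call was at the edge of the threshold. In the feed groups B9d1 had 8.15, 8.21 and 8.11 in NDA lungs, 7.52, 7.66 and 7.58 in NEDD lungs and 7.82, 7.93 and 7.55 in PCNB lungs, against 8.08, 7.88 and 7.78 in feed control lungs. The NDA arrays lay above and the NEDD arrays below all feed control arrays, with differences of 0.24 and -0.33, neither of which was called.

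Tctn2, a tectonic of the same module whose full X-box is shown above, had 7.11, 7.17 and 7.65 in benzofuran lungs, against 6.67, 6.96 and 6.90 in corn oil control lungs. The groups did not overlap, and the difference of 0.47 ± 0.15 was not called (limma adjusted p = 0.109), nor was it at 0.30 without animal 10. Its feed signals were 6.94, 7.13 and 7.14 in NDA lungs, 6.72, 6.49 and 6.56 in NEDD lungs and 6.86, 6.95 and 6.65 in PCNB lungs, against 6.88, 7.22 and 6.68 in feed control lungs. The NDA arrays overlapped with those of feed control, and the NEDD difference was -0.34. B9d2, partner of B9d1 in the module, differed by 0.43 with benzofuran (limma adjusted p = 0.0724). At the low end of the role Tctn1 and Mks1 each differed by -0.02.

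Of the 11 IFT-B genes all had positive differences with benzofuran, from 0.12 for Ift80 to 0.55 for Ift22. Of these 2 rose, beside 1.56% of all genes called higher. Ift172, a large IFT-B subunit needed at the ciliary tip for the return run, had 8.87, 8.91 and 8.83 in benzofuran lungs, against 8.37, 8.47 and 8.54 in corn oil control lungs. These were the tightest benzofuran signals among the called genes, with an SD of 0.04, and animal 10 was the lowest of its group. The difference of 0.41 ± 0.09 (1.33-fold) had a limma adjusted p of 0.0291, and was 0.43 with an adjusted p of 0.0523 without animal 10. Ift172 in the feed groups had 8.83, 8.82 and 8.75 in NDA lungs, 8.43, 8.44 and 8.49 in NEDD lungs and 8.28, 8.56 and 8.49 in PCNB lungs, against 8.47, 8.54 and 8.37 in feed control lungs. NDA lay above all other feed arrays by 0.34 ± 0.09 over feed control, with a limma adjusted p of 0.0857 and of 0.0449 without benzofuran animal 10.

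Ift22, the Rab-like small GTPase of IFT-B, had 8.02, 8.06 and 8.56 in benzofuran lungs, against 7.55, 7.60 and 7.84 in corn oil control lungs. No benzofuran array overlapped a corn oil array, and animal 10 was 0.52 above the mean of the other two. The difference was 0.55 ± 0.13 (1.47-fold, limma adjusted p = 0.0326), and 0.38 with an adjusted p of 0.114 without animal 10. Its feed signals were 7.87, 8.00 and 7.99 in NDA lungs, 7.49, 7.70 and 7.61 in NEDD lungs and 7.82, 7.76 and 7.72 in PCNB lungs, against 7.84, 7.75 and 7.66 in feed control lungs. The lowest NDA array lay just above the highest feed control array, and the NDA difference of 0.21 was not called.

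Ift74 and Ift81 pair to carry tubulin, the building block of the ciliary axoneme. Ift74 had 8.48, 8.49 and 8.91 in benzofuran lungs, against 8.15, 8.42 and 8.14 in corn oil control lungs. The groups did not overlap, and the difference of 0.39 ± 0.13 was not called (limma adjusted p = 0.109). In the feed groups it had 8.51, 8.44 and 8.62 in NDA lungs, 7.81, 7.93 and 8.10 in NEDD lungs and 8.26, 8.22 and 8.03 in PCNB lungs, against 8.36, 8.56 and 8.31 in feed control lungs. Both the NEDD and the PCNB arrays lay below all feed control arrays, and NEDD animal 12 was the lowest of the 18. The NEDD difference of -0.47 ± 0.13 was the most negative of any cilium gene in that comparison and was not called (limma adjusted p = 0.345).

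Ift81 had 8.70, 8.64 and 8.86 in benzofuran lungs, against 8.19, 8.73 and 8.65 in corn oil control lungs. Corn oil animals 24 and 25 lay above benzofuran animal 8, so the groups overlapped although corn oil animal 22 was below every benzofuran array, and the difference was 0.21 ± 0.12. Its feed signals were 8.60, 8.70 and 8.77 in NDA lungs, 8.15, 8.24 and 8.40 in NEDD lungs and 8.34, 8.41 and 8.39 in PCNB lungs, against 8.41, 8.65 and 8.59 in feed control lungs. NEDD and PCNB again lay below all feed control arrays, with differences of -0.29 and -0.17 that were not called. The probe set used for Ift81 can bind more than 1 transcript, and its 2 other probe sets differed by 0.08 and -0.03 with benzofuran.

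Ift57, a peripheral IFT-B subunit, had 8.79, 8.77 and 9.28 in benzofuran lungs, against 8.59, 8.73 and 8.62 in corn oil control lungs. Animal 10 was the highest by far, and the difference was 0.30 with it and 0.14 without it. In the feed groups Ift57 had 8.85, 8.87 and 8.86 in NDA lungs, 8.44, 8.52 and 8.53 in NEDD lungs and 8.72, 8.62 and 8.58 in PCNB lungs, against 8.71, 8.74 and 8.71 in feed control lungs. The 3 NDA arrays lay within 0.03 of each other and above feed control, and the NEDD arrays lay below it. Ift46, the IFT-B subunit whose probe set had the highest mean of its role, had 9.21, 9.06 and 9.42 in benzofuran lungs, against 8.85, 9.08 and 9.15 in corn oil control lungs. These groups overlapped, and the difference of 0.20 ± 0.12 was not called. Its feed signals were 8.96, 9.29 and 9.14 in NDA lungs, 8.83, 8.89 and 9.12 in NEDD lungs and 8.90, 8.96 and 9.001 in PCNB lungs, against 9.002, 8.97 and 8.96 in feed control lungs. Every treated feed group overlapped with feed control.

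All 3 IFT-A genes were positive with benzofuran and none was called, beside the 1.73% of all genes. Ift43, an IFT-A subunit with the smallest p of the role, had 9.52, 9.61 and 10.06 in benzofuran lungs, against 9.21, 9.29 and 9.37 in corn oil control lungs. The groups did not overlap, and the difference of 0.44 ± 0.11 just missed the threshold (limma adjusted p = 0.0563). Its feed signals were 9.43, 9.39 and 9.36 in NDA lungs, 9.25, 9.27 and 9.41 in NEDD lungs and 9.44, 9.35 and 9.34 in PCNB lungs, against 9.37, 9.36 and 9.39 in feed control lungs, and all of these groups overlapped. Ift140, a core IFT-A subunit, had 7.97, 8.10 and 8.10 in benzofuran lungs, against 7.72, 7.75 and 7.92 in corn oil control lungs. Animal 10 was like the other benzofuran animals here, and the difference of 0.26 ± 0.09 was 0.24 without it. In the feed groups Ift140 had 8.07, 8.06 and 8.04 in NDA lungs, 7.64, 7.74 and 7.74 in NEDD lungs and 7.57, 7.72 and 7.86 in PCNB lungs, against 7.79, 7.86 and 7.80 in feed control lungs. NDA lay above and NEDD below all feed control arrays, with differences of 0.24 and -0.11 that were not called.

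The BBSome and assembly genes gave 7 of 7 positive differences with benzofuran, from 0.07 for Bbs1 to 0.45 for Bbs4. They gave 0 calls, beside 1.73% of all genes. Bbs9, a BBSome scaffold subunit, had 6.76, 6.85 and 6.99 in benzofuran lungs, against 6.51, 6.57 and 6.59 in corn oil control lungs. Its difference of 0.31 ± 0.09 had a limma adjusted p of 0.0956, with no overlap between the groups. The feed signals of Bbs9 were 6.57, 6.58 and 6.72 in NDA lungs, 6.41, 6.64 and 6.53 in NEDD lungs and 6.62, 6.71 and 6.56 in PCNB lungs, against 6.72, 6.61 and 6.53 in feed control lungs, and none of the treated groups separated from feed control. Bbs2, another subunit and the highest probe set of the role, had 7.23, 7.21 and 7.51 in benzofuran lungs, against 7.09, 7.12 and 6.99 in corn oil control lungs. The groups did not overlap, with a difference of 0.25 ± 0.11. In the feed groups Bbs2 had 7.04, 7.14 and 7.05 in NDA lungs, 7.07, 6.84 and 7.22 in NEDD lungs and 7.15, 7.10 and 6.90 in PCNB lungs, against 7.19, 7.32 and 7.22 in feed control lungs. All NDA and all PCNB arrays lay below feed control, with differences of -0.17 and -0.19, and the corn oil control arrays also lay below feed control, with a difference of -0.18.

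The 4 motors had a median of 0.17 with benzofuran and no gene whose groups separated. Without animal 10 their median was 0.22, against 0.14 for the IFT-B genes and 0.20 for the BBSome and assembly genes. Kif3a and Kif3b then lay above all corn oil arrays. Fewer arrays separate more easily, and the share of all genes that did so without animal 10 was not worked out. Kif3b, a kinesin-2 motor subunit, had 7.60, 7.58 and 7.35 in benzofuran lungs, against 7.29, 7.36 and 7.39 in corn oil control lungs. Kifap3, the subunit that links kinesin-2 to its cargo, had 8.72, 8.65 and 8.73 in benzofuran lungs, against 8.65, 8.85 and 8.66 in corn oil control lungs. Both overlapped, with differences of 0.16 ± 0.11 and -0.02 ± 0.09. Among the feed groups Kif3b had 7.31, 7.58 and 7.48 in NDA lungs, 7.43, 7.43 and 7.67 in NEDD lungs and 7.28, 7.42 and 7.47 in PCNB lungs, against 7.23, 7.49 and 7.44 in feed control lungs. Kifap3 had 8.64, 8.55 and 8.63 in NDA lungs, 8.38, 8.49 and 8.60 in NEDD lungs and 8.72, 8.69 and 8.54 in PCNB lungs, against 8.64, 8.76 and 8.64 in feed control lungs. The groups overlapped, apart from the NEDD arrays of Kifap3, which lay below all feed control arrays with a difference of -0.19 that was not called. Kif3a, the partner motor subunit, was singled out after its values were seen, because of the 34 genes its signal on animal 10 lay furthest below the mean of animals 6 and 8, by a difference of -0.99, with 8.49, 8.66 and 7.59 in benzofuran lungs, against 8.00, 7.97 and 8.24 in corn oil control lungs. Animal 10 was the lowest of all 18 arrays for Kif3a and for no other of the 34 genes. The Kif3a difference was 0.18 ± 0.20 with animal 10 and 0.51 without it (limma adjusted p = 0.122), and its 3 other probe sets gave 0.06, -0.04 and 0.12.

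**Figure D3:**
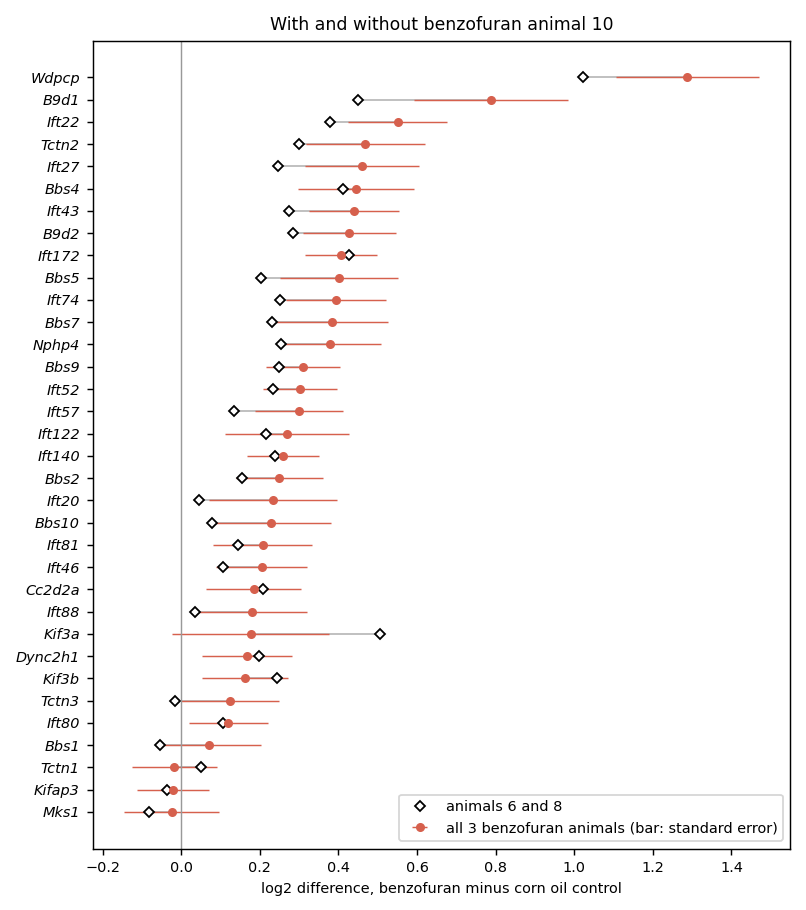
Log2 difference of each of the 34 genes between benzofuran and corn oil control, with 3 benzofuran animals (circles, bars for the standard error) and with animals 6 and 8 only (diamonds). Wdpcp lies past 1 in both, B9d1 lies at 0.79 with and 0.45 without animal 10, and Kif3a lies at 0.18 with and 0.51 without it.

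NDA against feed control gave differences of both signs. Of 34 differences 20 were positive, the median was 0.04 beside -0.02 over all genes (0.16 with the actin difference as a covariate), and limma called 0 of 34, where 1.37% of all genes were called and 1.12% were called higher. At an unadjusted p under 0.05 there were 3 of 34, beside 10.3% of all genes. The NDA arrays lay above all feed control arrays for 7 genes, beside 9.48% of all, and below them for 4, beside 11.6%. Leaving out benzofuran animal 10 made Wdpcp and Ift172 pass, beside 2.32% of all genes. Leaving out benzofuran animal 8 gave 1 call, beside 1.42% of all genes. The BBSome and assembly genes had a median of -0.13 with NDA, and the IFT-B genes one of 0.11.

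NEDD against feed control gave 29 negative differences of 34, with a median of -0.15 beside -0.02 over all genes. None was called in limma, where 3 genes of all (0.0223%) were and 1 of these was lower (0.00744%), 3 fell with array weights (3.88% of all genes called), and 6 of 34 had an unadjusted p under 0.05, beside 9.44% of all genes. The NEDD arrays lay below all feed control arrays for 13 of 34 genes, beside 12.1% of all, and above them for 0, beside 7.23%. All 11 IFT-B differences were negative, with a median of -0.18, as were all 7 of the BBSome and assembly genes, with a median of -0.20. The transition zone genes were mixed, with 5 of 8 negative.

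PCNB against feed control gave 27 of 34 negative differences with a median of -0.08. The median was 0.00385 with the actin difference as a covariate. The covariate is fitted from the actin spread within groups, widest in benzofuran lungs (0.354 to 0.906) through animal 10. The adjusted median leans on that animal, and the direction of the PCNB differences is left undecided. Limma called 0 of 34, beside 0.0149% of all genes, and 0 of 34 had an unadjusted p under 0.05, beside 2.97% of all genes. For 5 genes the PCNB arrays lay below all feed control arrays, beside 4.87% of all genes, and for 0 above them, beside 3.67%. Corn oil control against feed control, the check on the 2 vehicles, gave a median of -0.05, 0 of 34 called beside 0% of all genes, and 0 of 34 with an unadjusted p under 0.05, beside 2.02% of all genes. Bbs2 was the 1 gene whose corn oil arrays all lay below feed control, beside 4.91% of all genes. NDA, NEDD and PCNB share the same 3 feed control lungs, so their differences are not independent.

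**Figure D4:**
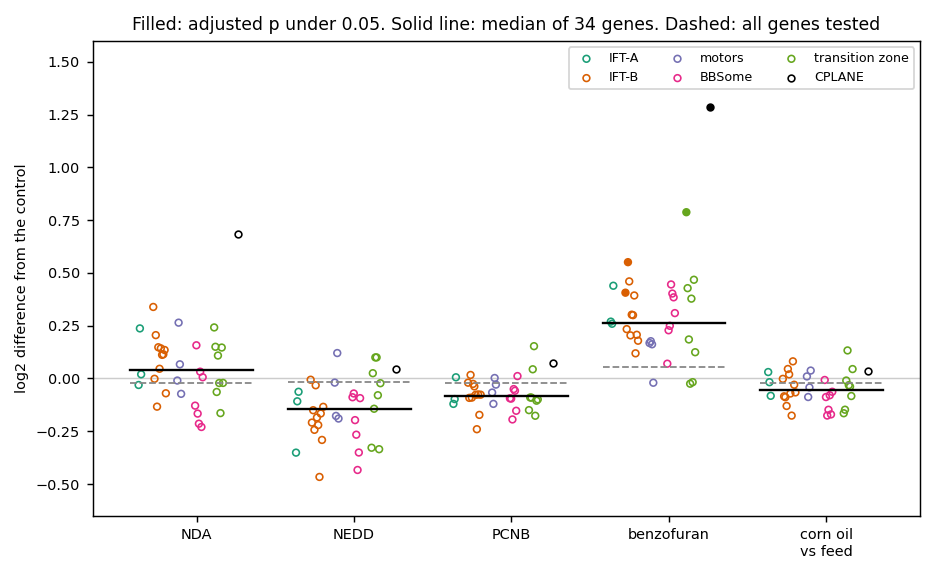
Log2 difference of each of the 34 genes (circles, coloured by complex) in 5 comparisons, filled where limma's adjusted p was under 0.05. The solid line is the median of the 34 genes and the dashed line that of all genes tested: 0.26 and 0.05 with benzofuran, -0.15 and -0.02 with NEDD.

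The 2 compounds classed as positive were then set against the 2 classed as negative, after each compound's difference from its own control had been taken: the NDA and benzofuran differences were averaged, and the average for NEDD and PCNB was subtracted. Each class held 2 compounds, and benzofuran alone was given by gavage. The standard errors and p-values come from the spread between mice within groups and do not measure the spread between compounds of a class. In this comparison 9 of 34 genes rose and 0 fell, where 3.49% of all genes were called and 3.16% were called higher. The 9 were Wdpcp, 5 IFT-B genes, Ift140, B9d1 and Tctn2. Of the 34 differences 33 were positive, with a median of 0.27 beside 0.03 over all genes, and 21 of 34 had an unadjusted p under 0.05, beside 18.8% of all. Without benzofuran animal 10 there were again 9 calls, beside 3.71% of all genes, with Ift81 lost and Kif3a gained (0.53, limma adjusted p = 0.0111). The count was 5 without NDA animal 4, NDA animal 5, PCNB animal 20, corn oil animal 22 or feed control animal 28, each left out in turn, where 2.23% to 2.67% of all genes were called, and 18 with array weights, where 13.9% were.

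Wdpcp had the largest class difference, 0.93 ± 0.16 (1.90-fold, limma adjusted p = 0.00233). It was followed by B9d1 at 0.75 ± 0.17 (1.69-fold) and Ift74 at 0.61 ± 0.11 (1.52-fold). Ift172 differed by 0.39 ± 0.08 and Ift140 by 0.35 ± 0.08. These 5 genes were called under all 25 alternative settings. Of the 25, the fit on only the groups compared repeats the main fit, because all 6 groups enter this comparison. Without animal 10 the differences were 0.79 for Wdpcp, 0.58 for B9d1, 0.53 for Ift74, 0.40 for Ift172 and 0.34 for Ift140. Tctn2 at 0.53, Ift22 at 0.45, Ift57 at 0.37 and Ift81 at 0.40 were called under 16, 15, 11 and 10 of the 25, and were 0.44, 0.36, 0.29 and 0.37 without animal 10. The contributions differed by gene: for Wdpcp the NEDD and PCNB effects were near 0, whereas for Ift74 the NEDD effect of -0.47 was larger in size than the NDA effect of 0.11 or the benzofuran effect of 0.39.

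For 6 of the 34 genes, B9d1, Ift140, Ift172, Ift22, Ift57 and Wdpcp, all 6 NDA and benzofuran arrays lay above the other 12, beside 1.44% of all genes. Wdpcp had the widest gap of the 6, with a lowest NDA or benzofuran signal of 7.19 and a highest other signal of 6.96. The gap for Ift57 was the narrowest, 8.77 against 8.74. No gene of the 34 had those 6 arrays below the other 12, beside 0.0744% of all genes.

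The benzofuran effect was set against the NDA effect, each over its own control, and 0 of 34 genes were called in limma, beside 0.29% of all genes, with 0.0893% higher, and again 0 without animal 10, beside 0.454%. At an unadjusted p under 0.05 there were 8 of 34, beside 9.34% of all. Of the differences 32 of 34 were positive, with a median of 0.25 beside 0.07 over all genes, and the median was 0.17 without animal 10. Wdpcp differed by 0.60 ± 0.26 (limma adjusted p = 0.492). For Ift140 and Ift172 the effects of the 2 compounds differed by 0.02 ± 0.13 and 0.07 ± 0.13.

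A further pair of comparisons was added after the values were seen. In the benzofuran effect minus the NEDD effect, 2 of 34 genes were called higher, Wdpcp at 1.25 (limma adjusted p = 0.0260) and Ift74 at 0.86 (limma adjusted p = 0.0279), beside 1.43% of all genes, with 1.3% higher. Leaving out animal 10 gave 3, beside 1.05% of all genes: Wdpcp at 0.98, Ift74 at 0.72 and B9d1 at 0.78 (limma adjusted p = 0.0301 for B9d1). In NDA against NEDD, both given in feed, Ift74 alone was called at 0.58 (limma adjusted p = 0.0191), beside 2.12% of all genes, with 1.88% higher. That comparison gave 9 of 34 called when benzofuran animal 10 was left out of the fit, with 584 genes (4.35%) called of all tested.

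Further cilium genes were read from a list of 48 symbols, some of them alternative names of the same gene, and 40 were tested. They were subunits of the same complexes that carry other symbols, and ciliary proteins outside them such as Arl3, Tulp3 and Inpp5e. The transcription factors Foxj1, Rfx1, Rfx2 and Rfx3 were also included. With benzofuran 0 of 40 were called, beside 1.73% of all genes. Of the differences 36 of 40 were positive and the median was 0.22, which was 0.11 with 28 of 40 positive without animal 10. Those with the smallest p were Dync2li1, a dynein-2 light intermediate chain, at 0.62 (limma adjusted p = 0.0574), and Dynlrb2, a dynein light chain, at 0.73 (limma adjusted p = 0.0593). In the class comparison 6 of 40 rose and 0 fell, beside 3.49% of all genes called, and 7 were called without animal 10, beside 3.71%. The 6 were Dync2li1, Dynlrb2, the IFT-B genes Ttc26 at 0.63 and Traf3ip1 at 0.41, Arl3 at 0.39 and Foxj1 at 0.73. Arl3 is a small GTPase that releases lipidated cargo in the cilium, and Foxj1 is the master factor of motile cilia. With NEDD 36 of 40 differences were negative, with a median of -0.19 and 0 called, beside 0.0223% of all genes.

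Markers of multiciliated airway cells moved with these genes. Of 26 listed symbols, some of them alternative names, 21 were tested, and the list shares Foxj1 with the one above. With benzofuran 4 of 21 rose, namely Tekt4, Cdhr3, 1110017D15Rik and Cfap126, beside 1.56% of all genes called higher. Of the differences 20 of 21 were positive and the median was 0.52. Without animal 10, 1 was called, beside 0.499% of all genes, and the median was 0.31. In the class comparison 14 of 21 rose with and without animal 10, beside 3.16% and 3.28% of all genes called higher. With NEDD 21 of 21 were negative, with a median of -0.27 and 0 called, beside 0.0223% of all genes. The mean log2 signal of the 21 ran from 8.12 to 8.57 in benzofuran lungs, against 7.62 to 8.04 in corn oil control lungs. In feed it ran from 8.02 to 8.10 in NDA lungs, from 7.57 to 7.59 in NEDD lungs and from 7.64 to 7.83 in PCNB lungs, against 7.68 to 8.00 in feed control lungs. The part of cell composition in the cilium gene results was not tested.

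Other cell lists moved in other ways. Their calls stand beside 1.73% of all genes called with benzofuran (0.499% without animal 10), 1.37% with NDA and 0.0223% with NEDD. The 8 club cell markers had a median of -0.00304 with benzofuran and 0 calls, and the 6 fibroblast markers had a median of -0.56 with Col1a2 and Col3a1 lower, which was -0.40 with 0 calls without animal 10. The alveolar macrophage markers, 5 tested, had a centred mean of 0.20 in NDA lungs and -0.28 in NEDD lungs, against -0.01 in feed control lungs. Their median differences were 0.01 with NDA, -0.09 with NEDD and 0.03 with benzofuran. Of the 5, Marco, a scavenger receptor, rose with NDA (1.15) and fell with NEDD (-1.04), and no other was called in these 3 comparisons. The B cell markers, 4 tested, had a centred mean of 0.96 in NDA lungs and -0.32 in NEDD lungs, against -0.10 in feed control lungs, and of -0.31 in benzofuran lungs, against -0.21 in corn oil control lungs. With NDA 1 of these 4 rose, Ighm, the immunoglobulin mu heavy chain, at 3.78, and with NEDD and benzofuran none was called. The part of either cell type in the cilium gene results was not tested. The alveolar type 1, alveolar type 2 and endothelial lists had medians of -0.08, -0.10 and -0.04 with benzofuran and 0 calls. The mean of the hepatocyte markers lay between 5.13 and 5.64 in all lungs, near the array medians of 5.68 to 5.80.

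**Figure D5:**
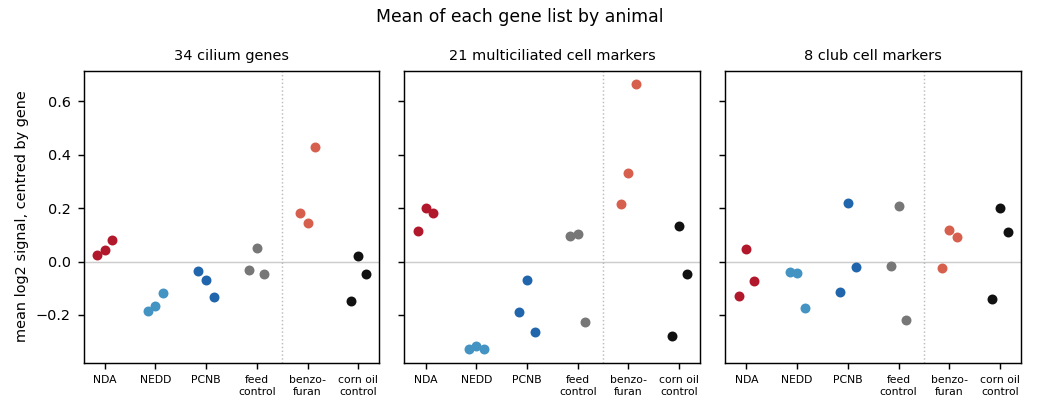
Mean log2 signal by animal of the 34 cilium genes, 21 multiciliated cell markers and 8 club cell markers, each gene centred on its mean over 18 arrays. The cilium genes lay at 0.18, 0.14 and 0.43 in the benzofuran lungs and between -0.19 and -0.12 in the NEDD lungs, and the multiciliated markers lay highest on animal 10.

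Other probe sets of the same genes were compared where they exist. The 14 genes with more than 1 probe set had 23 others, of which 18 passed the filter, and 13 of these 18 had the sign of the one used in the benzofuran comparison. The 5 that did not belonged to Kif3b, Kif3a and Ift81, with differences between -0.10 and -0.03. Of the 9 genes called in the class comparison, B9d1, Ift140, Ift172, Ift22, Ift74 and Tctn2 were represented by their only probe set.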

How the data were processed

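RNA of 18 lungs was hybridised to Affymetrix whole-genome mouse arrays, per the labels. The authors deposited log2 values for 45101 probe sets; the base was judged from their range of 2.48 to 14.8, and the summary and normalization methods were not given in the sources used here. Array medians lay between 5.68 and 5.80, and the values were kept as deposited. The platform annotation gave 34945 probe sets 1 symbol and 932 several, beside 64 control probe sets; only probe sets with 1 symbol were used. A gene was tested if its probe set with the highest mean exceeded the 40th percentile of signals on 3 or more arrays.

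Linear models with 6 group means were fitted to all arrays in limma 3.58.1 (R 4.3.3; lmFit, contrasts.fit and eBayes, 12 residual degrees of freedom). P-values are two-sided and adjusted by Benjamini-Hochberg over the 13434 genes within each comparison, with a threshold of 0.05. The number of arrays limits the precision. Groups came from the titles, and replicates are individual mice. The procedure was tested on simulated data.

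The genes and lists were chosen with earlier results of these data known. Values by animal are given for genes called in any of 7 comparisons, for Wdpcp, and per complex for the gene with the smallest p with benzofuran and the one with the highest mean; Kif3a and 2 further comparisons were added after the values were seen. Alternatives left out each array in turn, weighted arrays, dropped the filter, tested all probe sets together, centred medians, used a robust trend, added the actin 3' minus 5' difference as a covariate, or fitted only the groups compared. Promoter windows were searched in Python 3.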

Additional observations from a re-analysis of the deposited data

Results flagged for a closer look

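For 8 of the 34 genes, all arrays of one treatment lay above and all arrays of another lay below their own controls, beside 4.39% of all genes. B9d1 differed by 0.79 with benzofuran and 0.24 with NDA, above control, and by -0.33 with NEDD, below control. Ift140 differed by 0.26 with benzofuran and 0.24 with NDA, and by -0.11 with NEDD. Ift57 differed by 0.30 with benzofuran and 0.14 with NDA, and by -0.22 with NEDD. Ift74 differed by 0.39 with benzofuran, and by -0.47 with NEDD and -0.24 with PCNB. Bbs5 differed by 0.40 with benzofuran and -0.43 with NEDD, and Ift52 by 0.30 with benzofuran and -0.18 with NEDD. B9d2 differed by 0.43 with benzofuran and -0.0901 with PCNB. Bbs2 differed by 0.25 with benzofuran, and by -0.17 with NDA and -0.19 with PCNB.

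The benzofuran effect was tested against the NDA and NEDD effects for each of the 8 genes, and in limma Ift74 alone of the 8 passed, against NEDD (0.86, adjusted p = 0.0279). B9d1 against NEDD had 1.12 with a limma adjusted p of 0.0537, or 0.0301 without benzofuran animal 10. The difference between the benzofuran and PCNB effects was not tested.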

How the results depend on the processing

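With benzofuran the number of cilium genes called, 4, was 9 with array weights, 10 with the actin covariate, 1 with all probe sets tested together and 0 with only the groups compared, and ran from 1 to 7 when each array was left out in turn. The count for the positive against the negative treatments, 9, was 18 with array weights (13.9% of all genes called). It had a lowest value of 5 and a highest of 13 when each array was left out. The 13 came without benzofuran animal 8, where 6.46% of all genes were called. The NDA count, 0, was 2 with array weights (5.62% of all genes called), 1 with the actin covariate (2.71%), 1 with only the groups compared (2.11%), and ran from 0 to 2 when each array was left out. The NEDD count, 0, was 3 with array weights, all lower. With the actin covariate the median difference was 0.16 for NDA, 0.00385 for PCNB and 0.12 for the benzofuran minus the NDA effect. All values with this covariate lean on benzofuran animal 10, which widens the within-group actin spread that it is fitted from. In NDA against NEDD, 1 of 34 genes was called (2.12% of all genes), and 9 without benzofuran animal 10 (4.35%). The 2 comparisons added later are given only with and without that animal. Among the 7 comparisons, the other counts of cilium genes stayed within 1.5 times, and the other medians within the spread between replicates. No paired analysis was possible because no animal number occurs in more than 1 group. Detection calls were not used here, so low signals are told apart from background only by the filter.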
